A study of Ovis aries with 9 samples.

Results

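The genes followed were 10: SOX2, SOX8, SOX9, SOX10, OLIG1, OLIG2, PDGFRA, CSPG4, NKX2-2 and MYRF, which mark or drive the oligodendrocyte lineage or encode SOX factors of glia. Their rows were those with a RefSeq mRNA identifier whose sheep gene symbol is one of these names, and they comprised 10 genes with 21 transcripts out of 21284 genes with 76682 transcripts. RNA was sequenced from the hypothalamus of untreated Dolang ewes at prepuberty (120 days after birth, n = 3), puberty (130 days, n = 3) and postpuberty (150 days, n = 3), with 1 library per ewe. According to the study's methods, stage was assigned from oestrous behaviour and vulvar signs, and the ewes were kept under the same conditions. All values are FPKM (fragments per kilobase of transcript, scaled to the mapped fragments of the library), summed over the transcripts of a gene.

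Oligodendrocytes wrap axons in myelin and arise from precursor cells that carry the PDGF receptor PDGFRA and the proteoglycan CSPG4, also called NG2. The bHLH factors OLIG1 and OLIG2 and the SOXE factors SOX8, SOX9 and SOX10 set up the lineage, NKX2-2 helps precursors to differentiate, and MYRF switches on the myelin genes in maturing cells. SOX2 is held by neural stem cells and by several glia, and SOX9 in the adult brain is mainly a gene of astrocytes and ependymal cells, so neither is a marker of oligodendrocytes alone.

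The libraries were not alike. Puberty 2 had 42441 transcripts above 0 against 67824 to 71787 in the other 8 libraries, and its FPKM summed to 599726 against 359588 to 398109. Results are therefore given with and without it. Puberty 3 stood apart in another way: choroid plexus genes, led by TTR at 7594 FPKM, summed to 7630 FPKM there and to between 9.71 and 729 in the other 8 libraries. It is 1 of the 2 puberty ewes left without Puberty 2 and has the lowest OLIG1 and MYRF of the 8, and the part of choroid plexus tissue in those values was not tested. The depth behind each value is unknown from the deposited table, because FPKM carries no read number. Neuron genes summed to between 501 and 1636 FPKM in the other 8 libraries and to 371 in Puberty 2, and the mature myelin genes summed to between 7051 and 15696. Several genes that define hypothalamic neurons were sparse: across the 9 libraries AGRP did not exceed 0.169 FPKM, PMCH 0.699, SIM1 0.111 and NKX2-1 0.262. Others reached higher values: POMC lay between 2.09 and 22.4, AVP between 0.551 and 10.4, OXT between 0.319 and 4.81 and HCRT between 0.144 and 1.68. In bulk tissue, fewer cells of a type and less RNA per cell cannot be told apart.

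Without Puberty 2, the mean levels of the 10 genes spanned from 95.2 FPKM for OLIG1 to 1.99 FPKM for CSPG4. OLIG1 was followed by SOX8 (62.9), SOX10 (46.7), SOX2 (37.8) and MYRF (32.4), and then by PDGFRA (12.6), SOX9 (10.8), NKX2-2 (7.70) and OLIG2 (2.62). OLIG1 exceeded SOX8, and SOX8 exceeded SOX10, in 8 of 8 libraries, although the ranges of each pair overlapped. The steps from MYRF to PDGFRA and from NKX2-2 to OLIG2 were also kept in 8 of 8 libraries, and the step at PDGFRA was the place where neighbouring ranges did not meet. SOX2 and MYRF were not separable in level, since SOX2 was the higher of the pair in 5 of 8 libraries, and PDGFRA was above SOX9 in 3 of 8. The members from OLIG1 down to MYRF in this order were all transcription factors, and both precursor surface genes sat below MYRF. The factors SOX9, NKX2-2 and OLIG2 also sat below MYRF, and below PDGFRA in mean level.

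**Figure D1:**
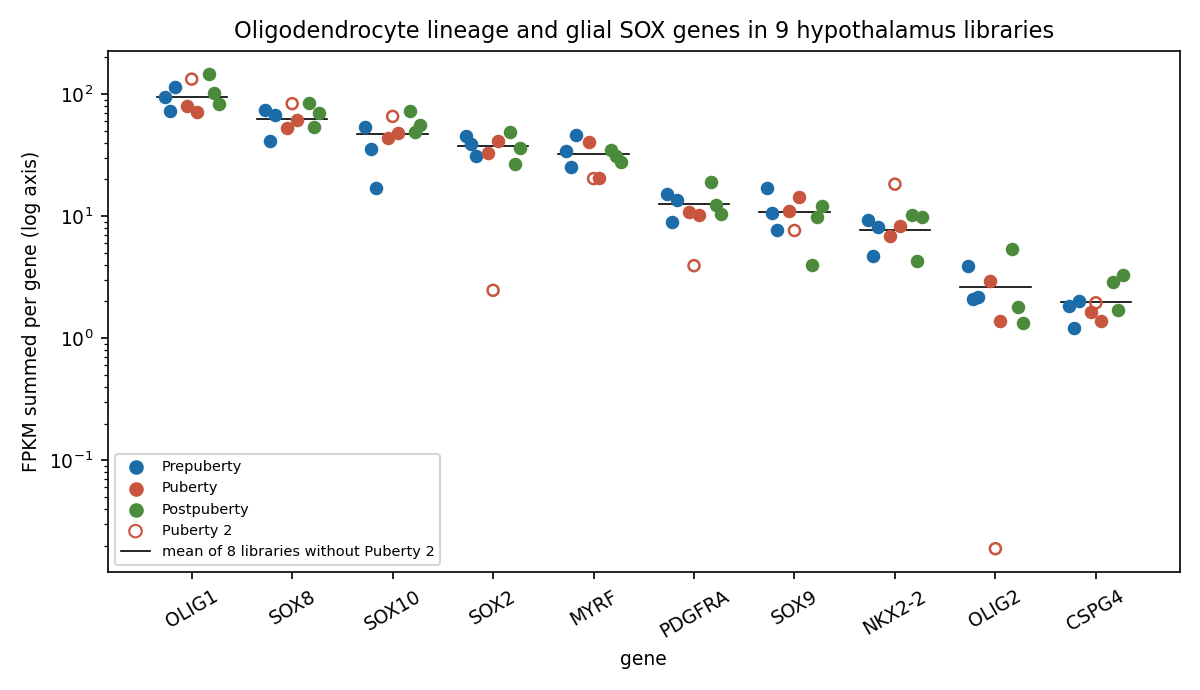
FPKM of each gene (log axis) in 9 libraries, coloured by stage, with Puberty 2 as an open circle and a line at the mean of the other 8 libraries. Stages overlap for every gene, and the open circle is far below the rest for SOX2 (2.46) and OLIG2 (0.0189).

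Among the SOXE factors, SOX10 maintains oligodendrocyte identity and activates myelin genes. SOX10 was measured at 53.9, 35.3 and 17.1 FPKM in the prepuberty ewes, at 43.6, 65.5 and 47.6 in the puberty ewes and at 71.9, 48.5 and 55.9 in the postpuberty ewes. Prepuberty 3 was the lowest library by a wide margin, and the other prepuberty values were 53.9, inside the later range, and 35.3, below it. The stage means were 35.4 ± 18.4, 52.2 ± 11.6 and 58.8 ± 11.97 FPKM (SD, n = 3 each). The largest stage difference among the 10 genes from prepuberty to postpuberty was that of SOX10, with a log2 fold change of 0.84 (SE 0.40, 95% interval -0.06 to 1.73, limma unadjusted p = 0.0639, adjusted p = 1). It did not pass the test, it was 0.40 without Prepuberty 3, where the difference of SOX9 (-0.69) was the larger, and Postpuberty 2 (48.5) was below Prepuberty 1 (53.9).

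SOX8, the close relative of SOX10 that shares its sites in oligodendrocytes, did not share the low value. It stood at 73.3, 41.4 and 66.7 FPKM at prepuberty, at 52.3, 83.3 and 61.6 at puberty and at 84.6, 53.5 and 69.8 at postpuberty. The ratio of SOX8 to SOX10 lay between 1.10 and 1.36 in 8 of the 9 libraries, Puberty 2 included, and was 3.90 in Prepuberty 3. The low SOX10 of that ewe was thus not seen in SOX8, and MYRF had its highest value there (46.5 FPKM). The genes whose level over the 8 libraries was most like SOX10, out of 6857 with a mean of at least 5 FPKM, were HDGFL2 (r = 0.95), JOSD2 (r = 0.94) and TNRC18 (r = 0.94), and each of these also had its lowest value of the 8 in Prepuberty 3, at 2.80, 1.99 and 3.48 FPKM. These r values describe 8 libraries and were chosen as the highest. SOX10 itself was far below the rest in Prepuberty 3, so that choice favoured genes with a low value there.

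SOX9 had its extreme in another ewe. It stood at 16.95, 10.5 and 7.65 FPKM at prepuberty, 11.1, 7.62 and 14.4 at puberty and 3.96, 9.77 and 12.2 at postpuberty. Its lowest value was in Postpuberty 1, the library with the highest level of 7 of the 10 genes among the 8. There the ratio of SOX10 to SOX9 reached 18.2, against 2.24 to 4.97 in the other 7 libraries without Puberty 2. The log2 fold change of SOX9 from prepuberty to postpuberty was -0.45 (SE 0.43, limma adjusted p = 1) with all libraries and -0.03 without Postpuberty 1, and the stages overlapped.

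SOX2 was steady in 8 libraries and nearly lost in 1. It was at 45.2, 39.3 and 31.3 FPKM at prepuberty, 33.1, 2.46 and 41.5 at puberty, and 49.1, 26.9 and 36.1 at postpuberty. The value of 2.46 belongs to Puberty 2 and was 15.3-fold below the mean of the others. The log2 fold change from prepuberty to puberty was -1.19 (SE 0.81, limma adjusted p = 0.838) with all libraries and -0.04 (SE 0.27, adjusted p = 1) without Puberty 2. That library alone set the size of the difference. A long non-coding RNA gene, LOC105603076 (chromosome 1, 206092618 to 206137057), spans the SOX2 locus (chromosome 1, 206122918 to 206123953, ARS-UI_Ramb_v3.0), and it was at 30.7 FPKM in Puberty 2 against 4.77 to 34.5 in the other 8 libraries. Whether the library kept the strand is not given in the sources used here, so reads of the 2 overlapping genes may not be told apart.

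SOX8 lies on chromosome 24 (1320938 to 1325831), SOX9 on 11 (58097237 to 58102816), SOX10 on 3 (215589320 to 215600075), PDGFRA on 6 (70436112 to 70487328), CSPG4 on 18 (30838196 to 30873734), NKX2-2 on 13 (40322428 to 40333722) and MYRF on 21 (36755173 to 36789549), in the same assembly.

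The bHLH pair lies 46360 bp apart on chromosome 1, with OLIG1 at 123168798 to 123171003 and OLIG2 at 123217363 to 123219432. OLIG1, which promotes maturation and repair, was at 94.4, 72.0 and 115 FPKM at prepuberty, 80.0, 132 and 71.6 at puberty, and 144, 102 and 82.2 at postpuberty. OLIG2, which specifies the lineage, was far lower: 3.90, 2.09 and 2.19 FPKM at prepuberty, 2.94, 0.0189 and 1.38 at puberty, and 5.35, 1.80 and 1.32 at postpuberty. OLIG1 exceeded OLIG2 by 24.2-fold to 62.2-fold in the 8 libraries. In Puberty 2 the 2 neighbours went apart, with OLIG1 second highest of 9 and OLIG2 almost at 0. The log2 fold change of OLIG2 from prepuberty to puberty was -0.78 (SE 0.54, limma adjusted p = 0.838), and -0.25 without Puberty 2.

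PDGFRA, the receptor through which PDGF keeps precursors dividing, was at 15.2, 8.99 and 13.5 FPKM at prepuberty, 10.9, 3.92 and 10.3 at puberty and 18.9, 12.2 and 10.4 at postpuberty. Puberty 2 was the lowest library, at 31.3% of the mean of the others. Its log2 fold change was -0.61 (SE 0.40, limma adjusted p = 0.838) from prepuberty to puberty and 0.73 (SE 0.40, adjusted p = 0.780) from puberty to postpuberty, and these became -0.20 and 0.32 without that library. CSPG4, the second surface gene of precursors and also a gene of pericytes, was at 1.84, 1.21 and 2.03 FPKM at prepuberty, 1.63, 1.95 and 1.38 at puberty and 2.89, 1.70 and 3.28 at postpuberty. Postpuberty held its 2 highest values, but Postpuberty 2 lay inside the range of both other stages. CSPG4 differed from prepuberty to postpuberty by a log2 fold change of 0.41 (SE 0.27, limma adjusted p = 1).

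NKX2-2 and MYRF act later in the lineage. NKX2-2 was at 9.37, 4.70 and 8.12 FPKM at prepuberty, 6.82, 18.3 and 8.33 at puberty and 10.2, 4.25 and 9.82 at postpuberty. Puberty 2 was its highest library, 2.37 times the mean of the others. In Puberty 2, 4 of the 10 genes (SOX2, OLIG2, PDGFRA and MYRF) were below and 1 (NKX2-2) above all 8 other libraries, beside 51.9% and 20.2% of all genes tested, so the 10 genes did not stand out in that library. MYRF was at 33.98, 25.2 and 46.5 FPKM at prepuberty, 40.1, 20.3 and 20.5 at puberty and 34.6, 30.9 and 27.5 at postpuberty. Its low puberty values were those of Puberty 2 and Puberty 3, while Puberty 1 was the second highest of all. The log2 fold change from prepuberty to postpuberty was 0.08 (SE 0.44) for NKX2-2 and -0.14 (SE 0.33) for MYRF, with limma adjusted p = 1 for both.

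The 10 genes did not vary as 1 block. Over the 8 libraries, OLIG1 and PDGFRA had r = 0.91 and SOX8 and NKX2-2 had r = 0.87, whereas SOX9 and OLIG1 had r = -0.79 and SOX10 and MYRF r = -0.42. These coefficients describe libraries that differ in the marker genes of several cell types, and they carry no test. Postpuberty 1 had the highest level of 7 of the 10 genes, and Prepuberty 2 the lowest of 3.

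**Figure D2:**
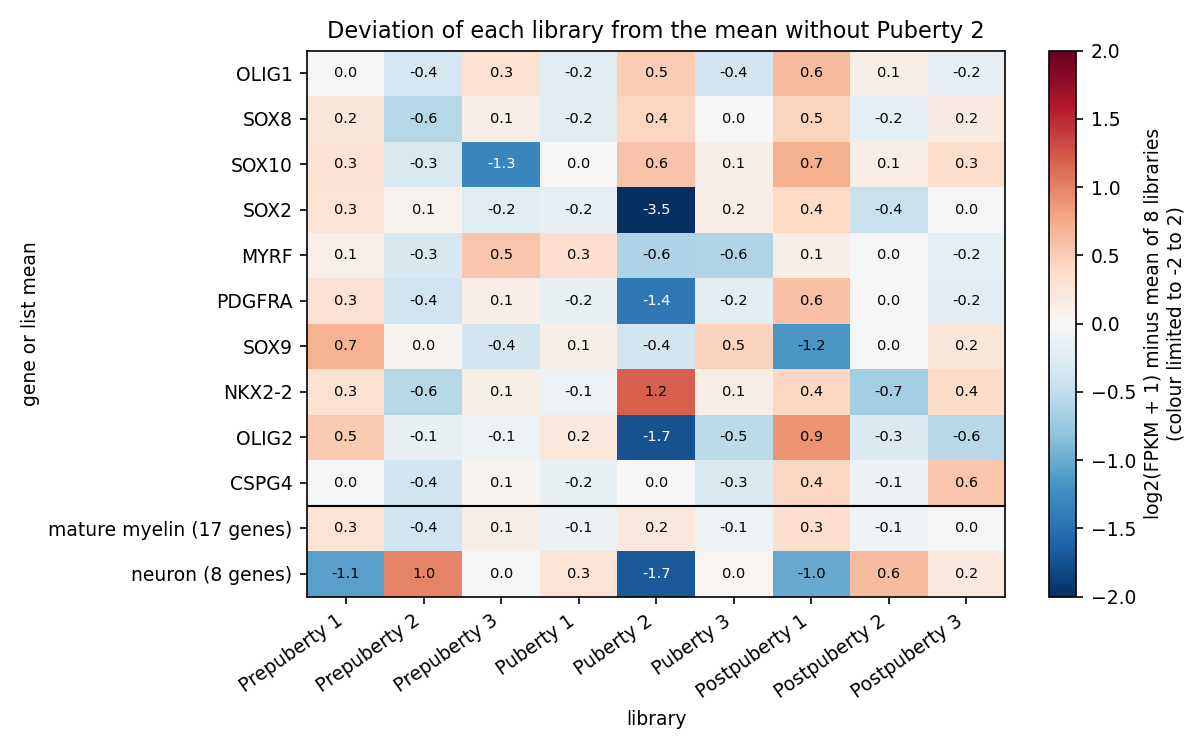
Each cell is log2(FPKM + 1) in 1 library minus the mean of the 8 libraries without Puberty 2, for the 10 genes and for the means of 17 mature myelin and 8 neuron genes; red is higher and blue lower. SOX10 is blue in Prepuberty 3, SOX9 in Postpuberty 1, and SOX2, OLIG2 and PDGFRA in Puberty 2.

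Tested over the whole table, no stage difference of the 10 genes passed. limma on log2(FPKM + 1), where a call needed a log2 difference of 1 or more in either direction and a Benjamini-Hochberg adjusted p below 0.05, called 0 of 10 genes and 0% of all genes tested in each of the 3 comparisons, both with 9 libraries (14238 genes tested) and without Puberty 2 (14209 genes). All 10 genes passed the filter on low values. At an unadjusted p below 0.05, 0 of the 10 genes were counted in any comparison. Over all genes that count was 1.82% from prepuberty to puberty, 2.14% from puberty to postpuberty and 0.815% from prepuberty to postpuberty with 9 libraries, and 1.66%, 2.11% and 1.87% without Puberty 2. The median log2 fold change of the 10 genes was -0.03, 0.24 and 0.10 in these comparisons, beside -0.14, 0.19 and 0.05 over all genes. Without Puberty 2 the medians were -0.07, 0.22 and 0.10 beside 0.02, 0.03 and 0.05. The other members' differences from prepuberty to postpuberty were 0.21 for SOX8 and OLIG1, 0.12 for PDGFRA, -0.07 for SOX2 and -0.08 for OLIG2. With 3 ewes per stage, the 95% interval for SOX2 from prepuberty to postpuberty ran from -1.90 to 1.76 with 9 libraries and from -0.64 to 0.50 without Puberty 2.

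**Figure D3:**
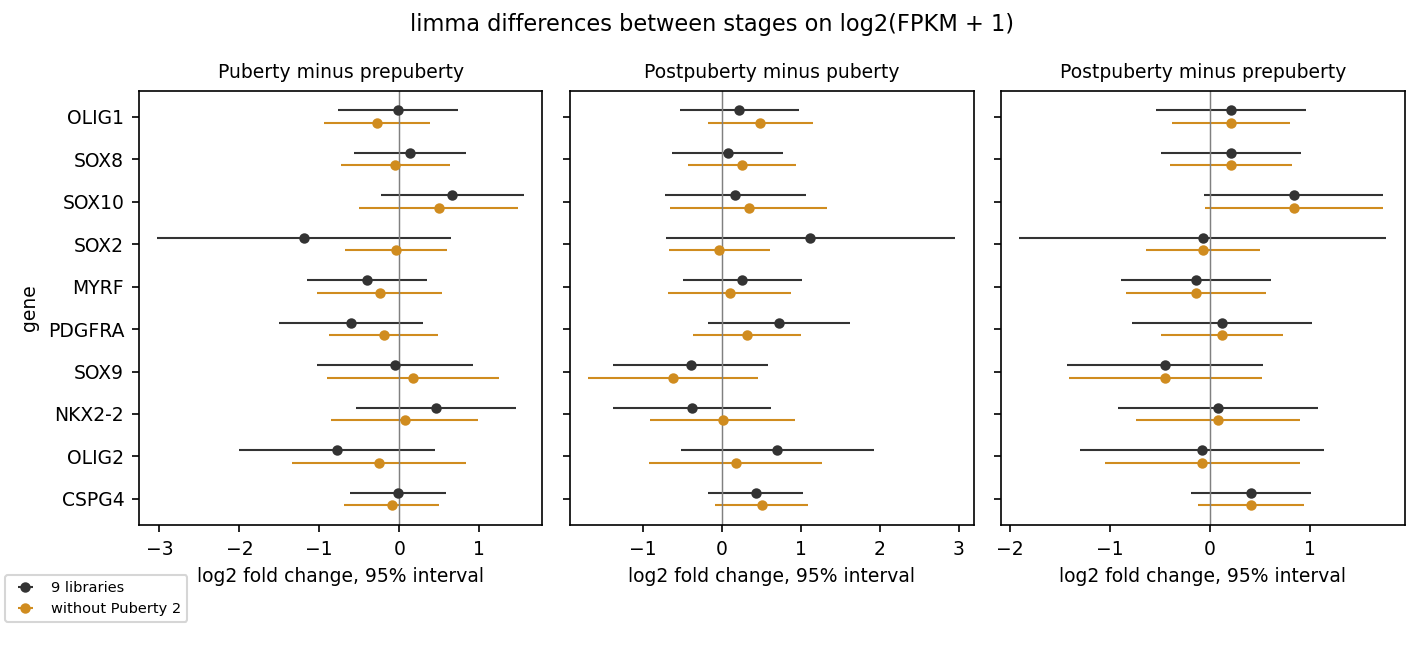
limma log2 fold changes with 95% intervals for the 10 genes in the 3 stage comparisons, with 9 libraries (black) and without Puberty 2 (orange). Every interval includes 0, and the SOX2 interval narrows from -1.90 to 1.76 down to -0.64 to 0.50 in the last panel.

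Counting groups that do not overlap gave a like picture. With 9 libraries this held for 0 of the 10 genes in each comparison, beside 5.16% of all genes from prepuberty to puberty, 7.32% from puberty to postpuberty and 4.57% from prepuberty to postpuberty. Without Puberty 2 it held for 0 genes from prepuberty to puberty (all genes 11.7%) and for 3 of 10 from puberty to postpuberty (all genes 14%): SOX10, OLIG1 and CSPG4 were each higher in the 3 postpuberty ewes than in Puberty 1 and Puberty 3. With 2 ewes against 3 the smallest exact p is 0.2. The log2 fold changes from puberty to postpuberty in that subset were 0.34 (SE 0.43) for SOX10, 0.49 (SE 0.28) for OLIG1 and 0.51 (SE 0.25) for CSPG4, with limma adjusted p = 1. These non-overlaps were 0 after scaling to the upper quartile. The share of variance between stages in the 8 libraries had a median of 15.2% over the 10 genes and 14.3% over all genes, and the highest shares were those of CSPG4 (51.2%), SOX10 (41.8%) and OLIG1 (33.7%).

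The relation of the lineage genes to the mature myelin genes was then examined over libraries. The index was the mean log2(FPKM + 1) of 17 genes, among them MBP, a main protein of compact myelin, and CNP. It was highest in Postpuberty 1 (7.53) and lowest in Prepuberty 2 (6.80). Over the 8 libraries PDGFRA had r = 0.93 (rho = 0.88; exact permutation p = 0.000347 for r and 0.00724 for rho) and SOX8 had r = 0.93 (rho = 0.95; exact permutation p = 0.000918 and 0.00114). Adjusted over the 14218 genes outside the list that were correlated the same way, both p-values were 0.0679, and 0 genes were below 0.05. A precursor receptor and a SOXE factor thus went with mature myelin transcripts from ewe to ewe, at the 99.7th percentile of r over all genes, without passing that adjustment.

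Without the libraries farthest from the median of the index, Postpuberty 1 and Prepuberty 2, r was 0.89 for PDGFRA and 0.77 for SOX8. With the stage means removed, r was 0.92 and 0.94. The relation of PDGFRA did not include Puberty 2: with 9 libraries r was 0.22 (rho = 0.57) for PDGFRA and 0.93 for SOX8. OLIG1 (r = 0.79, rho = 0.81, exact permutation p = 0.0210, adjusted over all genes 0.145) and NKX2-2 (r = 0.72, rho = 0.71, exact permutation p = 0.0462, adjusted 0.213) came next, and without the same 2 libraries their r was 0.54 and 0.45. In all, over the 8 libraries, 4 of 10 genes had a positive r with an unadjusted p below 0.05, beside 8.16% of all genes, and 2 of 10 had r of at least 0.9, beside 0.739%.

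OLIG2 (r = 0.65), CSPG4 (r = 0.62), MYRF (r = 0.48) and SOX2 (r = 0.40) had lower coefficients, none with an exact permutation p for r below 0.0775. By ranks CSPG4 was closer to the index, with rho = 0.81 (exact permutation p = 0.0218), and its r was 0.19 without the 2 farthest libraries. With Puberty 2 included, r was 0.15 for OLIG2, 0.60 for CSPG4, 0.23 for MYRF and -0.22 for SOX2. SOX10 had r = 0.26 (rho = 0.60), a value that rested on Prepuberty 3: it was 0.91 without that library. MYRF, the direct activator of myelin genes, followed the index less closely than PDGFRA over the 8 libraries. With Puberty 2 included this order was gone, at r = 0.23 for MYRF and 0.22 for PDGFRA. The difference between the coefficients was not tested. SOX9 had r = -0.35, which rested on Postpuberty 1 and was 0.27 without it.

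**Figure D4:**
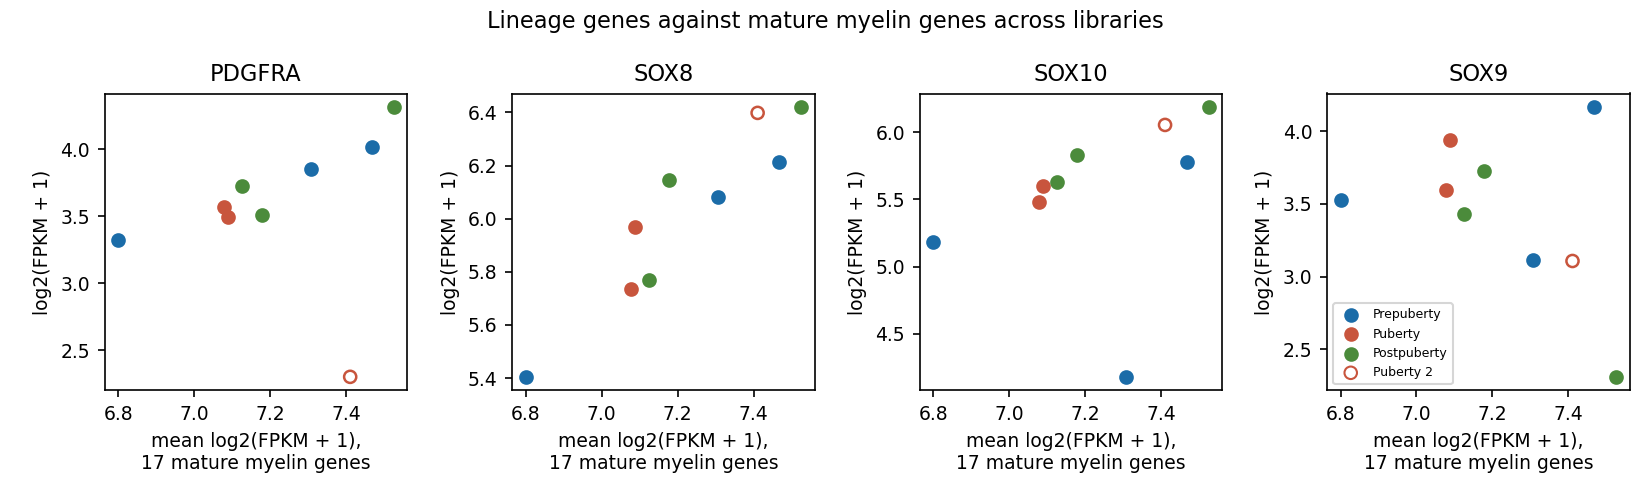
log2(FPKM + 1) of PDGFRA, SOX8, SOX10 and SOX9 against the mean of 17 mature myelin genes, 1 point per library, coloured by stage, with Puberty 2 open. PDGFRA and SOX8 climb with the index (r = 0.93 each over 8 libraries), Puberty 2 lies below the PDGFRA trend, and 1 prepuberty point lies below the SOX10 trend.

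Marker genes of several other cell types moved with the same libraries. The myelin index and the mean of 8 neuron genes had r = -0.93 over the 8 libraries (rho = -0.86; exact permutation p = 0.00136 and 0.0107; r = -0.86 without the 2 farthest libraries), and against the neuron mean r was -0.88 for SOX8 and -0.86 for PDGFRA. Without the libraries farthest from the median of the neuron mean, Prepuberty 1 and Postpuberty 1, these were -0.88 and -0.53. Neuron genes summed to 608 FPKM in Prepuberty 1 and 501 in Postpuberty 1, the libraries with the highest index, and to 1636 in Prepuberty 2, the one with the lowest. Endothelial genes had r = 0.88 with SOX8 and 0.78 with PDGFRA, and their sum lay between 85.8 and 166 FPKM. Mural and fibroblast genes, which summed to between 78.0 and 445 FPKM, had r = 0.73 and 0.53, and microglial genes, at 98.9 to 482 FPKM, had r = 0.67 and 0.30. Ependymal genes (0.52 and 0.25), astrocyte genes (0.02 and 0.45) and choroid plexus genes (0.30 and -0.17) had lower values with SOX8. With PDGFRA, the astrocyte genes were above the microglial genes. The 4 Schwann cell genes, which summed to between 15.5 and 89.5 FPKM, had r = 0.74 and 0.28. Their r was 0.57 with SOX10 and 0.83 with NKX2-2. From prepuberty to postpuberty all 4 had a positive log2 fold change (median 0.47, beside 0.05 over all genes), and limma called 0. The part of tissue makeup in the relations was not tested.

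The distance of precursor genes from myelin genes was taken in every library. The mean log2(FPKM + 1) of PDGFRA and CSPG4 minus that of the 17 myelin genes was -4.71, -4.57 and -4.58 at prepuberty, -4.59, -5.48 and -4.72 at puberty and -4.39, -4.55 and -4.38 at postpuberty. Leaving Puberty 2 (-5.48) aside, the 8 values spanned from -4.72 to -4.38, and the lowest postpuberty value was 0.02 above the highest of the others, less than the SD among the prepuberty (0.08) or postpuberty ewes (0.10). This difference was not tested.

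Taken for each gene on its own, the distance from the myelin mean did not overlap for SOX10 and PDGFRA from prepuberty to puberty (2 of 10 genes, beside 2.99% of all genes), for 0 genes from puberty to postpuberty (4.75%) and for SOX10 from prepuberty to postpuberty (1 of 10, beside 2.41%). SOX10 minus the myelin mean was -1.69, -1.62 and -3.13 at prepuberty, -1.60, -1.36 and -1.49 at puberty and -1.34, -1.50 and -1.35 at postpuberty. The prepuberty ewes were thus lowest, by a margin of 0.02 between Prepuberty 2 and Puberty 1. PDGFRA minus the myelin mean was -3.45, -3.48 and -3.45 at prepuberty, -3.51, -5.11 and -3.59 at puberty and -3.21, -3.40 and -3.67 at postpuberty. These distances were examined after the values were seen, and with 3 ewes against 3 the smallest exact p is 0.1.

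The other genes of the lineage were tested in the same fit. Of the 17 mature myelin genes, 8 genes of newly formed oligodendrocytes, 13 other precursor markers, 21 signals and brakes of the lineage and 10 other SOX genes, limma tested 17, 7, 12, 19 and 8 (7 for the last without Puberty 2) and called 0 in any comparison. From prepuberty to postpuberty, 15 of the 17 myelin genes had a positive and 2 a negative log2 fold change, with a median of 0.15 beside 0.05 over all genes, of which 62.1% were positive. The negative ones were MBP, the most abundant of the list, at -0.73, and ASPA at -0.33. The value of MBP rested on Postpuberty 2 (1112 FPKM, beside 7013 and 3920 in the other postpuberty ewes) and was 0.01 without it. OPALIN, a myelin membrane protein, differed from puberty to postpuberty by 0.65 (SE 0.27, limma unadjusted p = 0.0385, adjusted p = 0.780), and PDGFC, a ligand of PDGFRA, from prepuberty to postpuberty by 0.95 (SE 0.35, limma unadjusted p = 0.0239, adjusted p = 1). PDGFC also differed from prepuberty to puberty by 0.89 (unadjusted p = 0.0318, adjusted p = 0.838), and PLLP, a myelin membrane protein, from puberty to postpuberty without Puberty 2 by 0.47 (unadjusted p = 0.0430, adjusted p = 1). PDGFC was at 0.203 FPKM in Prepuberty 1 and 0.112 in Prepuberty 2. In Prepuberty 3 it was at 1.78, inside the later range of 1.61 to 2.49. In Puberty 2, 4 of the 8 genes of newly formed oligodendrocytes were below all other libraries and 1 above: NKX6-2, a homeobox factor of oligodendrocytes, was at 276 FPKM against 32.5 to 68.4 elsewhere, while BCAS1 was at 3.10 against 5.20 to 21.6. Of the 13 other precursor markers, 7 were below, such as PTPRZ1 at 8.5 against 25.3 to 38.1, and 1 above, SMOC1 at 53.3 against 14.1 to 34.3. Both splits resemble that of all genes tested in this library.

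The sums can hide which annotated transcript was counted. MYRF had 6 annotated transcripts, of which XM_042237919.1 and XM_027959259.2 took most of the signal. XM_042237919.1 held 45.7%, 16.4% and 17.1% of MYRF FPKM at prepuberty, 18.5%, 5.9% and 49.4% at puberty and 61.9%, 48.1% and 64.1% at postpuberty. The postpuberty ewes were all above the prepuberty ewes, but Prepuberty 1 came within 2.4 percentage points of Postpuberty 2, and Puberty 3 was above Postpuberty 2. XM_027959259.2 held 25.5%, 65.2% and 57.2% at prepuberty, 62.4%, 75.5% and 25.4% at puberty and 13.2%, 25.5% and 17.1% at postpuberty.

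Of the 6 transcripts of the 10 genes that held between 10% and 90% of a gene with a mean of at least 5 FPKM, shares did not overlap for 0 from prepuberty to puberty, 0 from puberty to postpuberty and 1 from prepuberty to postpuberty. The corresponding shares over 7085 transcripts were 8.02%, 8.95% and 8.72%, and the MYRF transcript was singled out after its values were seen. For 3 ewes against 3 the smallest exact p is 0.1. PDGFRA and NKX2-2 were also split differently between libraries. The main PDGFRA transcript XM_004009830.5 held 47.0% to 92.1% in the 8 libraries and 9.5% in Puberty 2, where XM_012179972.4 held 90.5%. The NKX2-2 transcript XM_015099673.4 held 82.7%, 73.6% and 28.01% at prepuberty, 16.2%, 0% and 31.5% at puberty and 32.8%, 0% and 28.5% at postpuberty, and its stages overlapped.

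**Figure D5:**
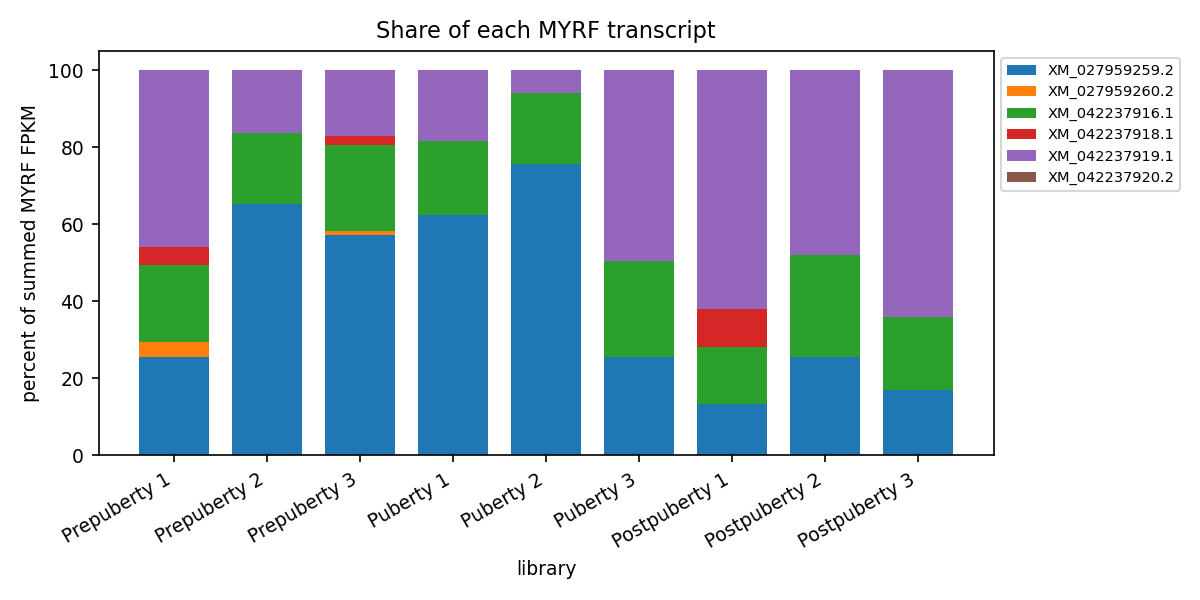
Stacked bars of the percent of summed MYRF FPKM held by each of 6 annotated transcripts in 9 libraries. XM_042237919.1 holds 48.1% to 64.1% in the postpuberty libraries and 16.4% to 45.7% in the prepuberty libraries, while Puberty 3 (49.4%) is near the former.

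Within 100 kb of the 10 genes, 38 neighbouring genes had values, and 11 of these were long non-coding RNA genes, of which 2 had a mean of at least 1 FPKM. Apart from LOC105603076 at SOX2, this was LOC105614868, which lies 1528 bp from SOX10 on chromosome 3. LOC105614868 was at 3.39, 2.93 and 3.52 FPKM at prepuberty, 3.21, 3.36 and 3.52 at puberty and 3.67, 4.70 and 5.12 at postpuberty. Its postpuberty values were above all others, and it was singled out after its values were seen. Over the 14238 genes tested, which are sums of mRNA rows and do not include it, non-overlap was 7.32% from puberty to postpuberty. From prepuberty to postpuberty it was 4.57%, and each share is for that comparison alone. Other neighbours, such as TMEM258, TEKT4, LOC114114079, SLC16A8, GSX2 and CIMAP1C, also had groups that did not overlap in 1 comparison each. TMEM258, which overlaps MYRF by 3897 bp on chromosome 21, was at 169 FPKM in Puberty 2 against 44.7 to 63.4 elsewhere. In that library 20.2% of all genes tested were above all 8 others. MYRF was at its lowest there (20.3 FPKM) but nearly as low in Puberty 3 (20.5), where TMEM258 was at its lowest (44.7).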

How the data were processed

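The hypothalami of 9 Dolang ewes were sequenced as 1 library each. According to the study's methods and the submitters' processing notes, the authors trimmed reads with Trimmomatic, aligned them with HISAT2 to a sheep RefSeq assembly and used StringTie to assemble, merge and quantify transcripts. Per transcript, the deposited unit is FPKM, although the table is named as raw counts, so no count test was run. The study gives clean read numbers per stage, which are not used here. The table itself holds neither strand nor reads, so the reads behind a single value, and with them its counting precision, are unknown.

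Here FPKM were summed per gene over 76682 of 76684 RefSeq mRNA rows (of 115108 rows) with a symbol in the RefSeq gene table (ARS-UI_Ramb_v3.0). The remaining 38424 rows, including newly assembled transcripts, were left out of these sums, so signal counted there is missing from them. Long non-coding neighbours have no mRNA rows, so their values come from such other rows. Sums of coding neighbours can hold other rows too: LINGO1 in Prepuberty 1 was 3.29 FPKM as a neighbour and 3.22 in the mRNA sum. Genes with a mean of at least 0.5 FPKM in at least 1 stage were tested on log2(FPKM + 1) with limma 3.58.1 in R 4.3.3 (lmFit, eBayes with trend, 9 libraries, 3 stages, Benjamini-Hochberg over all genes). A call needed a log2 difference of 1 or more in either direction and an adjusted p below 0.05. Differences are the later minus the earlier stage. Correlations used exact two-sided permutation over all 40320 orders of 8 libraries and 362880 of 9, in Python 3.11.15 with numpy 2.4.6. The scripts were tested on simulated data. Each library is a separate ewe, and between libraries of a stage at most 0.00662% of transcripts above 0 had identical values.

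The 10 genes and the marker lists were chosen with earlier results of these data known. Genes outside the 10 were named as among the 3 most abundant of a list, the 3 most alike in level, neighbours within 100 kb, or, where stated, after their values were seen; OPALIN, PLLP, PDGFC, ASPA and the hypothalamic markers were named in this last way. Alternatives were the pseudocount (0.1), no filter, 3 scalings, no variance trend, only the 2 stages compared, the replicate number as a block and each library left out. Scaling without Puberty 2, the shares of transcripts, the neuron list, the distance of each gene from the myelin mean and the adjustment over all genes were added after seeing the data.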

Additional observations from a re-analysis of the deposited data

How the results depend on the processing

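No call of a stage difference was gained or lost: limma called 0 of the 10 genes and 0 genes in all under each of the 17 alternatives, among them the replicate block, where the count of members was 0. Each library is a separate ewe, so the replicate numbers were not taken to pair them. Deviations of same-numbered libraries correlated between -0.31 and 0.51, and those of differently numbered libraries between -0.56 and 0.31. With each library left out in turn, many log2 fold changes changed sign. From puberty to postpuberty, SOX2, the largest difference of the 10 genes at 1.12, ran from -0.03 (without Puberty 2) to 1.78, SOX9 from -0.68 to 0.03 (without Postpuberty 1), NKX2-2 from -0.64 to 0.01 (without Puberty 2) and SOX8 from -0.08 to 0.26. From prepuberty to puberty, SOX8 ran from -0.11 to 0.29, SOX9 from -0.30 to 0.23, OLIG1 from -0.28 to 0.16 and CSPG4 from -0.15 to 0.07. From prepuberty to postpuberty, SOX2 ran from -0.28 to 0.14, SOX8 from -0.04 to 0.38, OLIG1 from -0.01 to 0.40, OLIG2 from -0.51 to 0.21, PDGFRA from -0.12 to 0.29, NKX2-2 from -0.18 to 0.44 and MYRF from -0.36 to 0.08. Scaling also turned signs from prepuberty to puberty: upper quartile scaling gave 0.00 for SOX9, 0.05 for OLIG1 and 0.02 for CSPG4, quantile normalization -0.04 for SOX8, 0.08 for SOX9 and 0.20 for CSPG4, and equal totals -0.08 for SOX8. From puberty to postpuberty, upper quartile scaling gave -0.04 for SOX8. The count of genes higher in every postpuberty than puberty library, 0 with 9 libraries, was 3 without Puberty 2, 2 after scaling to equal totals, 3 with that scaling without Puberty 2 and 0 with upper quartile scaling without it. The count of genes correlated with the myelin index was 2 (PDGFRA and SOX8), with the exact permutation p adjusted over the 10 relations alone and below 0.05. It ran from 1 (without Prepuberty 2) to 3 with a library left out. Adjusted over all genes, both exact permutation p-values were 0.0679 and 0 genes were below 0.05. The coefficient of SOX9 ran from -0.75 to 0.27 and that of SOX10 from -0.01 to 0.91, and SOX2 had -0.22 with 9 libraries. The precursor minus myelin difference ran from -0.48 to -0.04 (puberty minus prepuberty, the latter without Puberty 2) and from 0.22 to 0.66 (postpuberty minus puberty); with a pseudocount of 0.1 it was 0.60 for the latter and 0.27 for postpuberty minus prepuberty. The cause of these shifts was not tested. FPKM without read numbers limits what can be said of OLIG2 and CSPG4, which are low.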
